A study of Mus musculus with 7 samples.

Results

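The D and E cyclins, the kinases Cdk2, Cdk4 and Cdk6, and the phosphatase Cdc25a carry a cell through G1 into S phase, and their transcripts were examined in mouse myoblasts with and without Hmga2. The 9 genes were taken by name, as Ccnd1, Ccnd2, Ccnd3, Ccne1, Ccne2, Cdk2, Cdk4, Cdk6 and Cdc25a, and every probe set that the platform annotation pairs with one of them was kept. They are 9 of the 18193 genes named on the array and have 27 of its 45101 probe sets, from 1 for Ccne2 to 7 for Ccnd2. No member probe set was paired with several genes. Total RNA came from myoblasts, the precursor cells of skeletal muscle fibres, of C57BL/6 mice, and was hybridised to 7 Affymetrix arrays as biotin-labelled cRNA. The 3 wild type samples were all from females. The 4 Hmga2 KO samples came from HMGA2 -/- mice, with replicates 1 and 3 male and replicates 2 and 4 female. The labels state that no treatment was applied. They give neither the age of the mice, nor how long the cells were grown, nor which part of Hmga2 was deleted. With 7 arrays, each described as a biological replicate, precision is limited by their number.

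D cyclins are made in response to growth factors and bind Cdk4 and Cdk6, which phosphorylate the retinoblastoma protein and so release the E2F transcription factors. E2F proteins in turn switch on the E cyclins and Cdc25a, and the E cyclins bind Cdk2 once Cdc25a has removed its inhibitory phosphates, which drives the start of DNA replication. In muscle precursors cyclin D1 falls as the cells leave the cycle, whereas cyclin D3 is known to stay high or rise in differentiating muscle cells. Arrays measure RNA, so none of the values bears on protein level or kinase activity.

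E2F control makes the promoters of these genes of interest, and 3 are shown because they belong to the gene with the largest difference (Ccne1) and to the members whose window held an E2F-type motif (Cdk2 and Cdc25a). Each is the RefSeq window of 300 bases on GRCm38.p6, from 250 before to 50 after the annotated start, printed 5′ to 3′ on the gene's strand. The windows lie at chr7:38107441-38107740 on the minus strand for Ccne1, chr10:128705002-128705301 on the minus strand for Cdk2 and chr9:109875329-109875628 on the plus strand for Cdc25a. Capitals mark matches to the E2F-type motifs TTTCCCGC and TTTGGCGC and to the CCAAT box, each searched on both strands.
Ccne1: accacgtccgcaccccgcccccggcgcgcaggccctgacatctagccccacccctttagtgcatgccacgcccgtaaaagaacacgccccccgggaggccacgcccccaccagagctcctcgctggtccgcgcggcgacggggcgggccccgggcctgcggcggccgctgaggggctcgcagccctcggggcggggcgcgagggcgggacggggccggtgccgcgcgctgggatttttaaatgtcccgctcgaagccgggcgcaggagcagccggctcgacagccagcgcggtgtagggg
Cdk2: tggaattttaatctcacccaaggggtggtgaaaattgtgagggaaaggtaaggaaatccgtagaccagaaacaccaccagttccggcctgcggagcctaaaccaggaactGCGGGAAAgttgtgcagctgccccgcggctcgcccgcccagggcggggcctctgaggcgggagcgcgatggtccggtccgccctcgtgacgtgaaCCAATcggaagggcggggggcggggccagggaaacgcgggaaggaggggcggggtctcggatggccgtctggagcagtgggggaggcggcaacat
Cdc25a: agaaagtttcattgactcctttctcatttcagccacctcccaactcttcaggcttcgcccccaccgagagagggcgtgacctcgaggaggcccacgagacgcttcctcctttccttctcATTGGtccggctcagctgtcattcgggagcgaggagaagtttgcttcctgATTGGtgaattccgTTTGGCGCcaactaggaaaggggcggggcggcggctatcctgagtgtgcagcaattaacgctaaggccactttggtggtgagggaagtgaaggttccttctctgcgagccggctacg
The Cdk2 window held TTTCCCGC on the opposite strand, starting at position -140 from the start site, and CCAAT at position -45. In the Cdc25a window TTTGGCGC started at position -67, with CCAAT on the opposite strand at positions -131 and -81. The Ccne1 window held none of these letters, which says only that they are absent from this window. Windows were found for 6 of the 9 genes, 7 windows in all because Ccnd3 has 2, and those of Cdk4, Cdk6 and Ccnd3 held neither E2F-type motif, although 1 Ccnd3 window held CCAAT at position -108. Among all 32851 windows of this length, 1.56% held TTTCCCGC or TTTGGCGC and 37.4% held CCAAT. The member windows held 24.0% to 43.3% A or T bases, against a median of 47.3% over all windows. A match is a description of the letters and was not related to any change in expression.

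As a check of the labels, Hmga2 measured by its brightest probe set gave intensities of 11999, 9998 and 12799.9 in wild type and of 96.6, 85.7, 96.7 and 104 in Hmga2 KO. A two-sided exact permutation test gave p = 0.0286, the smallest value open to 35 splits. Median intensity was 150 on every array, and 9 probe sets of Y-linked genes gave 33.9 to 58.2 in the 5 females, which lack those genes, a range taken here as background. RNA integrity, read from how far 3′ Actb signal exceeded 5′ Actb signal, differed for wild type replicate 2, with a ratio of 1.94 where the other 6 arrays had 1.61 to 1.74. Of 12 myoblast markers, Pax7, Myod1 and Myog were bright, with wild type means on the log2 scale of 12.44, 13.91 and 14.23. Myf5 was dimmer, at 10.63 in wild type and 11.27 in Hmga2 KO. A lower mean in Hmga2 KO was found for 8 of the 12, against 67.6% of all genes. At an unadjusted p under 0.05 (limma), 3 lay lower and 0 higher, beside 10.4% and 3.06% of all genes. The 12 summed to 100177 to 106729 in wild type and 89929.5 to 106410 in Hmga2 KO, lowest in Hmga2 KO replicate 1. The 8 endothelial markers summed to 793 to 984 in a sample and the 8 leukocyte markers to 613 to 678, with Tek at or below the background range in all samples, Cd3e in 6 and Adgre1 in 4. The 6 measured Schwann cell markers summed to 6367 to 9365, mostly from Erbb3 and Pmp22, while Sox10 was dim, at log2 means of 6.31 (wild type) and 6.27 (Hmga2 KO), and S100b was within the background range in 5 samples.

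Ccne1 had the largest difference between the genotypes, but none of the 9 genes passed the adjusted test. Over all 45037 probe sets tested, 8 (0.0178%) passed an adjusted p of 0.05 (limma, Benjamini-Hochberg), and none of the 27 was among them, the smallest adjusted p being 0.263 for Ccne1. The means lay lower in Hmga2 KO for 23 of the 27 probe sets (85.2%), against 62.1% of all probe sets. The median difference was -0.16 on the log2 scale over the members and -0.05 over all probe sets. At an unadjusted p under 0.05, 2 member probe sets lay lower and 0 higher, which is 7.41% of the members beside 11.6% of all probe sets in either direction, 7.9% lower and 3.73% higher. Of all probe sets at that threshold 68.0% lay lower, and 49.8% with quantile normalization. Those 2 are also the ones whose groups did not overlap, again 7.41%, where 7.71% of all probe sets lay apart in the lower and 2.77% in the higher direction, and both belong to Ccne1. The share of members is close to the background, so the count says nothing particular about these genes as a group. With quantile normalization the lower means numbered 18 of 27 and the member median was -0.09, against a median of -0.01 over all probe sets. In bulk RNA of this kind, fewer cells of a type and less RNA per cell cannot be told apart.

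**Figure D1:**
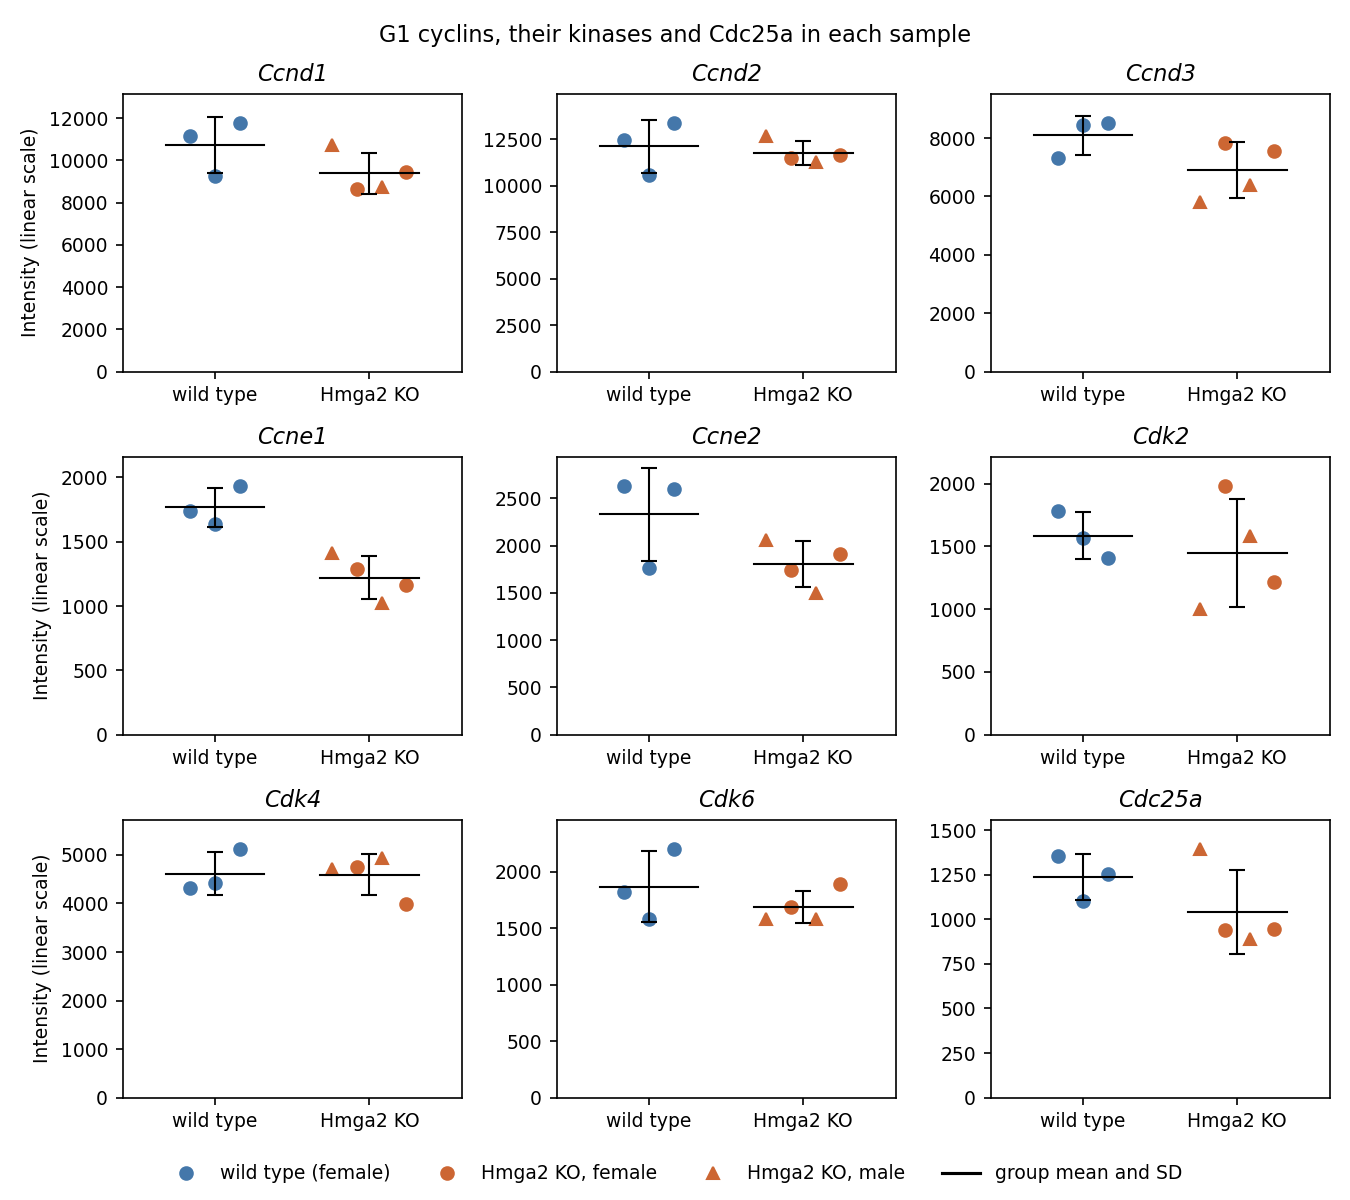
Intensity on a linear scale (y axis) in the 3 wild type and 4 Hmga2 KO samples, with a panel for each of the 9 genes on its brightest probe set; circles are females, triangles males, and bars the mean and SD of the group. In the Ccne1 panel every Hmga2 KO sample (1021 to 1413) lies below every wild type sample (1636 to 1931), while in the other 8 panels the groups overlap.

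Ccne1, which encodes cyclin E1, the Cdk2 partner that acts at entry into S phase, had the largest difference. Its brightest probe set, 1416492_at, had 1738, 1636 and 1931 in wild type and 1413, 1287, 1021 and 1165 in Hmga2 KO. The lowest wild type sample thus stood above the highest Hmga2 KO sample, a male, and the lowest value of all belonged to the other male. Wild type averaged 1768 ± 149.9 (SD, n = 3) and Hmga2 KO 1222 ± 168 (SD, n = 4), which is 1.45-fold higher in wild type on the log2 scale and more than either spread. On the log2 scale it was -0.54 (SE 0.13, 95% interval -0.82 to -0.26, adjusted p = 0.263, limma). The other probe set, 1441910_x_at, had 1391, 1288 and 1482 in wild type and 1076, 1149, 967 and 1137 in Hmga2 KO. Here too the groups stood apart, with a difference of -0.36 (SE 0.10, 95% interval -0.59 to -0.13, adjusted p = 0.332). A name ending in _x_at marks a probe set with probes that can match other sequences, so its value can include other transcripts. In females alone the differences were -0.53 and -0.28, and on the brightest probe set the log2 means were 10.23 in Hmga2 KO males and 10.26 in Hmga2 KO females. The male minus female difference there was -0.03 (95% interval -0.43 to 0.37). The adjusted p of the brightest probe set ranged from 0.169 without Hmga2 KO replicate 2 to 0.726 without wild type replicate 3, and the difference from -0.61 to -0.46.

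Ccne2, which encodes the related cyclin E2, was measured by 1 probe set. It had 2628, 1759.6 and 2602 in wild type and 2060.1, 1741, 1498 and 1914 in Hmga2 KO. Wild type replicates 1 and 3 lay above all Hmga2 KO samples, whereas wild type replicate 2 lay among them. The difference was -0.36 (SE 0.17, 95% interval -0.73 to 0.02, adjusted p = 0.446, limma). Without wild type replicate 2 it was -0.55 (unadjusted p = 0.00394, adjusted p = 0.275), and without wild type replicate 1 or 3 it was -0.26 (unadjusted p = 0.203 and 0.198). The same array stood out in its Actb ratio, 1.94, and the part of RNA quality in the value was not tested.

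**Figure D2:**
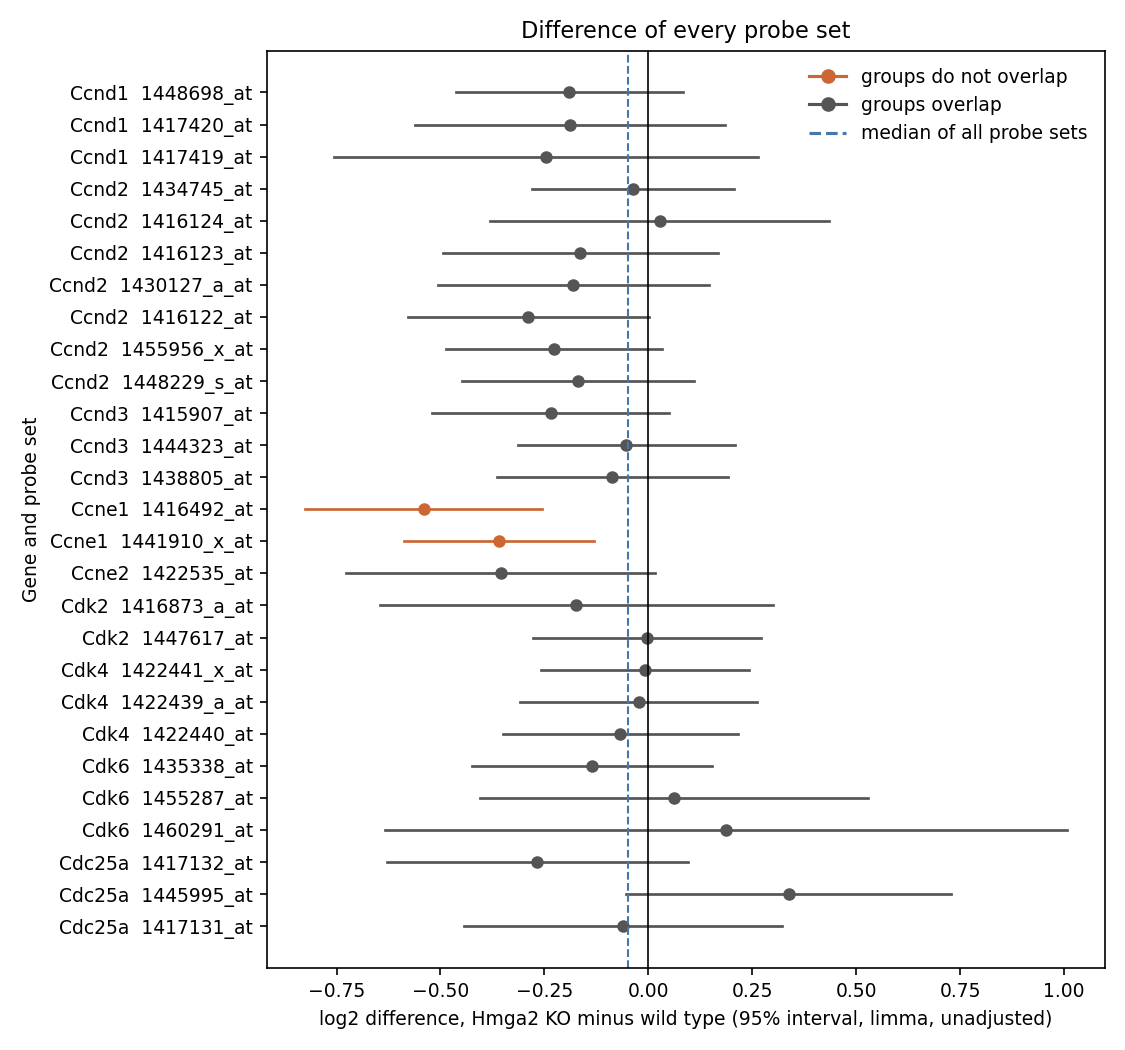
Difference in log2(intensity + 1), Hmga2 KO minus wild type (x axis), for each of the 27 probe sets (y axis), with points for the estimate and lines for its unadjusted 95% limma interval; the dashed line is the median of all probe sets, -0.05. Only the intervals of the 2 Ccne1 probe sets lie wholly below 0.

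Ccnd1, which encodes cyclin D1, the growth factor sensor of the G1 phase, was bright in all samples. Its brightest probe set had 11161, 9238 and 11754 in wild type and 10719.7, 8622, 8758 and 9434 in Hmga2 KO. Wild type replicate 2 lay within the Hmga2 KO range, and Hmga2 KO replicate 1 within that of wild type. The difference was -0.19 (SE 0.12, 95% interval -0.46 to 0.08, adjusted p = 0.562, limma). With 1 sample left out it ranged from -0.29 without wild type replicate 2 to -0.12 without wild type replicate 3. The other 2 probe sets gave -0.19 and -0.25. The first of these ranged from -0.36 without wild type replicate 2 to -0.10 without Hmga2 KO replicate 2, and the second from -0.53 without wild type replicate 2 to -0.05 without wild type replicate 1. All 3 varied together over the 7 samples, with pairwise Pearson r of 0.898 to 0.960. In both of these the same pair of samples, wild type replicate 2 and Hmga2 KO replicate 2, stood lowest.

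Ccnd2, which encodes cyclin D2, had 12438, 10543 and 13344 in wild type and 12684, 11456, 11255 and 11642 in Hmga2 KO on its brightest probe set. All 4 Hmga2 KO values lay inside the wild type range, and the difference was -0.04 (95% interval -0.28 to 0.21). With quantile normalization it was 0.01, and with 1 sample left out it ranged from -0.13 without wild type replicate 2 to 0.04 without wild type replicate 3. The remaining 6 probe sets gave differences of -0.29 to 0.03. The most negative of them, 1416122_at, had 1840.0, 1620.4 and 2137 in wild type and 1799, 1416, 1459 and 1429 in Hmga2 KO (difference -0.29, 95% interval -0.58 to 0.0018, adjusted p = 0.432, limma). Replicates 2, 3 and 4 of Hmga2 KO lay below all wild type samples there, and replicate 1 did not. Of the 7 probe sets, 6 had a lower mean in Hmga2 KO. Pairwise r among them over the 7 samples ran from -0.02 to 0.966, so the probe sets of this gene did not all follow one pattern.

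Ccnd3, which encodes cyclin D3, had 7332, 8436 and 8507 in wild type and 5828, 7837, 6409 and 7571 in Hmga2 KO on its brightest probe set. The low values were those of the 2 Hmga2 KO males, while both Hmga2 KO females lay within the wild type range. The difference was -0.23 (SE 0.13, 95% interval -0.52 to 0.05, adjusted p = 0.497, limma), and -0.07 in females alone. With 1 sample left out it ranged from -0.30 without wild type replicate 1 to -0.16 without Hmga2 KO replicate 1. Between males and females of Hmga2 KO it was -0.33 (95% interval -0.64 to -0.03, unadjusted p = 0.0360, adjusted p = 0.915), with mean log2 values of 12.58 and 12.91. Values of a list of 25 genes of terminal muscle differentiation are given beside it. Relative to the mean of all samples, that list stood at -0.90 and -0.30 in the Hmga2 KO males, at 0.26 and -0.11 in the Hmga2 KO females, and at 0.10 to 0.63 in wild type. Its summed intensity ran from 62201 to 138519 in Hmga2 KO and from 121443 to 170062 in wild type. A lower mean in Hmga2 KO was found for 25 of its 25 genes, against 67.6% of all genes. Between males and females of Hmga2 KO, 18 of the 25 had an unadjusted p under 0.05 (limma), beside 1152 of all 18193 genes. The median male minus female difference was -0.65 over the list and -0.04 over all genes. The list's part in the Ccnd3 values was not tested. The 2 dim probe sets of Ccnd3, with means of 209 and 70.7 in wild type and 201 and 66.7 in Hmga2 KO, gave -0.05 and -0.09, and the dimmer of them was near background.

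Of the kinases that pair with D cyclins, Cdk4 had differences near 0 and Cdk6 was measured less precisely. Cdk4 had 4312, 4417 and 5115 in wild type and 4716, 4745, 4931 and 3984 in Hmga2 KO on its brightest probe set. That probe set, 1422441_x_at, is again of the kind that can include other transcripts. The groups overlapped widely, with the lowest value in a Hmga2 KO female, replicate 4. Its difference was -0.01 (95% interval -0.26 to 0.24), and the other 2 probe sets gave -0.02 and -0.07. These intervals leave room for changes of up to 0.35 in size on the log2 scale, and all 3 differences turned positive (0.01 to 0.05) with quantile normalization. Cdk6 had 1825, 1579 and 2200.0 in wild type and 1587, 1693, 1583 and 1889.6 in Hmga2 KO. All 4 Hmga2 KO values lay inside the wild type range, and the difference was -0.14 (95% interval -0.43 to 0.15). On the other 2 Cdk6 probe sets the sign was positive, at 0.06 and 0.19. Wild type replicate 2 had the lowest value on each, 549 beside 981 and 1046 in the other wild type samples, and 93.3 beside 179 and 339. Their intervals were wide, -0.40 to 0.53 and -0.63 to 1.01, and their sign and size rested on single wild type samples. Without wild type replicate 2 the differences were -0.23 and -0.28, and without wild type replicate 1 they were 0.23 and 0.65 (unadjusted p = 0.0487 for the latter, adjusted p = 0.349, limma). The brightest Cdk6 probe set ranged from -0.25 without wild type replicate 2 to -0.01 without wild type replicate 3.

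Cdk2, the kinase of the E cyclins, varied more within Hmga2 KO than between the groups. Its brightest probe set had 1779, 1564 and 1407 in wild type and 1003, 1978, 1582 and 1216 in Hmga2 KO. Hmga2 KO replicates 1 and 2 were thus the lowest and the highest of all 7 samples. Wild type averaged 1584 ± 187 (SD, n = 3) and Hmga2 KO 1445 ± 428 (SD, n = 4), and the log2 difference of -0.17 (SE 0.21, 95% interval -0.65 to 0.30, adjusted p = 0.778, limma) was smaller than the spread. It ranged from -0.34 without Hmga2 KO replicate 2 to -0.01 without Hmga2 KO replicate 1. The other probe set was dim, with 82.6 to 107 over all samples and a difference of -0.0038.

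Cdc25a, which encodes the phosphatase that activates Cdk2, gave opposite signs on its probe sets. The brightest, 1417132_at, had 1357, 1101 and 1253 in wild type and 1393, 941, 892 and 943 in Hmga2 KO. Replicates 2, 3 and 4 of Hmga2 KO lay below all wild type samples, and replicate 1 lay above them, for a difference of -0.27 (SE 0.16, 95% interval -0.63 to 0.10, adjusted p = 0.542, limma). With 1 sample left out it ranged from -0.41 without Hmga2 KO replicate 1 to -0.20 without wild type replicate 1. By contrast 1445995_at had 449, 327 and 424 in wild type and 611, 392, 456 and 576 in Hmga2 KO, a difference of 0.34 (SE 0.17, 95% interval -0.05 to 0.73, adjusted p = 0.482), which ranged from 0.20 without wild type replicate 2 to 0.45 without Hmga2 KO replicate 2. The third, 1417131_at, gave -0.06, and 0.01 with quantile normalization. Pairwise r among the 3 ran from 0.181 to 0.737, and no direction for the gene can be read from them.

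Single samples weighed on several members at once. Wild type replicate 2 was the lowest wild type sample on 21 of the 27 probe sets, and Hmga2 KO replicate 1 the highest Hmga2 KO sample on 16. Wild type replicate 3 had the highest value of all 7 samples on 13 probe sets. Such ranks were not counted over all 45037 probe sets, so whether they are particular to the members cannot be told. Probe sets of the same gene are also not independent. At an unadjusted p under 0.05 there were 8 lower member probe sets without wild type replicate 2 and 7 without Hmga2 KO replicate 1, beside 2 with all samples. Over all 45037 probe sets the lower counts were 3070, 2938 and 3558 in the same order. Leaving out any other single sample gave 2 or 3 lower member probe sets. None passed the adjusted test without wild type replicate 2 or without Hmga2 KO replicate 1, where the smallest adjusted p was 0.259 and 0.264 (limma).

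**Figure D3:**
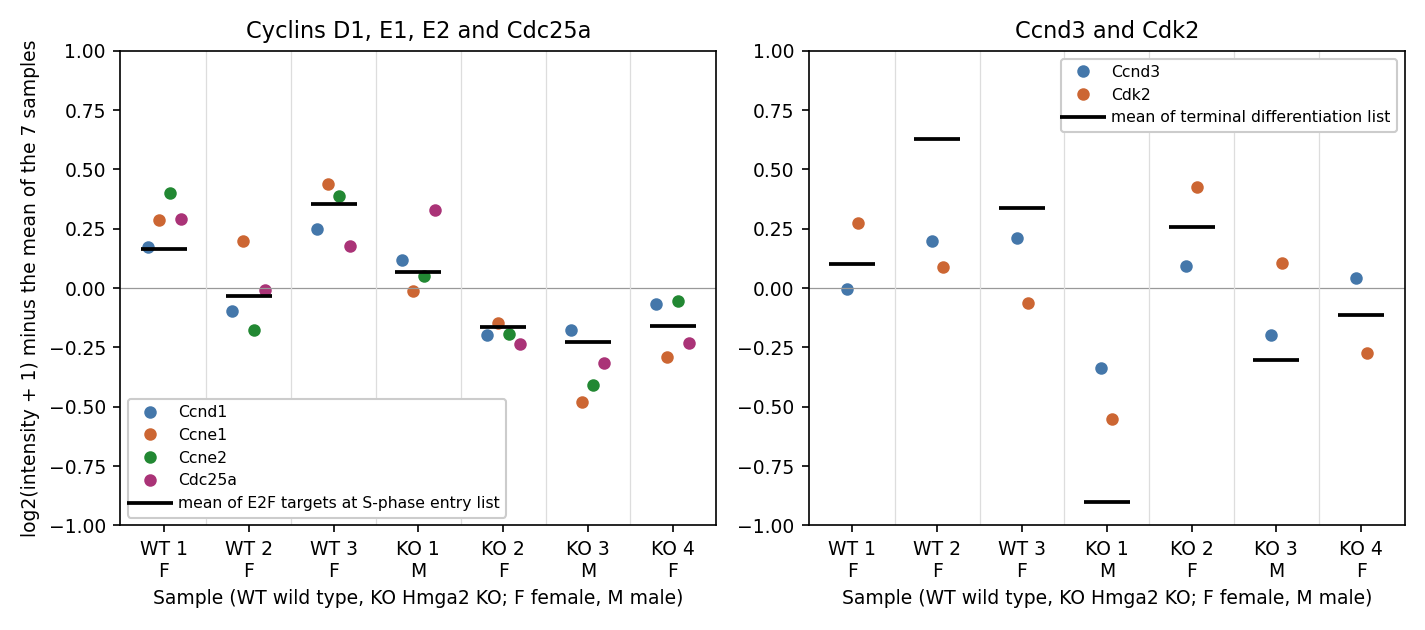
Log2(intensity + 1) minus the mean of the 7 samples (y axis) in each sample (x axis), for Ccnd1, Ccne1, Ccne2 and Cdc25a on the left and Ccnd3 and Cdk2 on the right, with points for the brightest probe set of a gene and black bars for the mean of a gene list. On the left the E2F target list stands at 0.35 in wild type replicate 3 and at -0.23 in Hmga2 KO replicate 3, and on the right the terminal differentiation list stands at -0.90 in Hmga2 KO replicate 1, where Ccnd3 and Cdk2 are lowest.

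Over the 7 samples, Ccnd1 and Ccne2 were the pair of members most alike on their brightest probe sets, with r = 0.936, followed by Ccnd1 with Cdc25a at 0.877 and Ccnd1 with Ccnd2 at 0.866. Ccne1 and Ccne2 had r = 0.817. Cdk2 had r of -0.35 with Ccnd1, -0.36 with Ccnd2 and 0.484 with Ccnd3, all weak over so few arrays. These 36 pairs are descriptions over 7 arrays that fall into 2 genotypes. Among 9669 other genes with a mean log2 value of at least 8, the gene most like Ccnd1 was Cks1b, a cyclin-dependent kinase subunit, with r = 0.998. The closest to Ccnd2 was Snapin (0.986), to Ccnd3 Pdk2 (0.987), to Ccne1 1110008P14Rik (0.987) and to Ccne2 Tnfaip8 (0.996). For the kinases and the phosphatase these were Susd6 for Cdk2 (0.983), Gtf3c6 for Cdk4 (0.990), Ube2v2 for Cdk6 (0.972) and Mtmr2 for Cdc25a (0.989). Between 4 and 73 genes had an r over 0.95 with a given member. Each closest gene is the highest of 9669 values of r over 7 arrays. A high r thus follows from the choice itself and tells nothing of a shared function.

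Other genes of the G1/S pathway were taken from 5 lists of 72 genes, 69 of them measured, each by its brightest probe set. None passed the adjusted test by limma, 0 lower and 0 higher, while 16 lay lower and 1 higher at an unadjusted p under 0.05. That is 23.2% lower, beside 10.4% lower and 3.06% higher over the brightest probe sets of all 18193 genes. The means of 61 of the 69 were lower in Hmga2 KO (88.4%), against 67.6% of all genes, and the median difference was -0.23 against -0.07. With quantile normalization 54 of 69 had a lower mean, with a median of -0.16, and 6 lay lower and 1 higher at an unadjusted p under 0.05. Over all 45037 probe sets 2312 then lay lower and 2328 higher, with a median of -0.01. At that threshold 3 of the 69 lay lower without wild type replicate 3, 24 without wild type replicate 2 and 7 with sex in the model. Over all 45037 probe sets the lower counts in these settings were 1957, 3070 and 1798.

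Targets of E2F at the start of S phase, the genes for licensing factors, replicative helicase, polymerases and nucleotide supply, made up most of these. Of 26 measured, 25 had a lower mean in Hmga2 KO, with a median of -0.30, and 11 lay lower at an unadjusted p under 0.05. Over all genes 67.6% of means were lower and 10.4% lay lower at that threshold. The groups did not overlap for 7 of the 26 targets (26.9%), against 9.29% of all genes in that direction and 2.37% in the higher one. Pola2, a subunit of the polymerase that starts DNA strands, had 448, 482 and 534 in wild type and 398, 365, 337 and 364 in Hmga2 KO (difference -0.41, adjusted p = 0.289, limma). Its partner subunit Pola1 gave -0.32, Chaf1b, of the complex that assembles chromatin on new DNA, -0.49, Mcm6, of the replicative helicase, -0.42, and the transcription factor Mybl2 -0.42. These 5 were named as those with the smallest unadjusted p (limma) among the 7 whose groups do not overlap. On Mcm6 the lowest wild type value, 2360 in replicate 1, stood just above the highest Hmga2 KO value, 2351 in replicate 1. Without wild type replicate 3, Mcm6, Pola1 and Mybl2 gave -0.25, -0.24 and -0.30 (unadjusted p = 0.0722, 0.0749 and 0.0583, limma). Pola2 and Chaf1b then gave -0.35 and -0.40 (unadjusted p = 0.0141 and 0.0324, limma). Mcm5 and Mcm7, also without overlap, gave -0.32 and -0.30. The probe sets used for Mcm5, Mcm6 and Mcm7 have names ending in _x_at, so their values can include other transcripts. The list mean relative to all samples was 0.16, -0.03 and 0.35 in wild type replicates 1, 2 and 3 and 0.07, -0.16, -0.23 and -0.16 in Hmga2 KO replicates 1 to 4, so the groups overlapped. Proliferation markers lay the same way, with 9 of 9 measured means lower, against 67.6% of all genes, and a median of -0.23. These markers summed to 27483 to 34411 in wild type and 24624 to 27619 in Hmga2 KO. Their part in the values of the E cyclins was not tested.

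Among the pocket proteins and E2F factors, which the D cyclin kinases act on, 11 of 13 means were lower with a median of -0.06, and 3 lay lower at an unadjusted p under 0.05. Over all genes 67.6% of means were lower, the median was -0.07 and 10.4% lay lower at that threshold, so this list's median is near that of all genes. Rb1, which encodes the retinoblastoma protein, gave -0.03 (95% interval -0.43 to 0.38), and E2f1, an activating E2F, -0.28 (adjusted p = 0.392, limma). E2f8, a repressive E2F, had 3468, 3413 and 3491 in wild type and 2687, 3172, 2268 and 2669.8 in Hmga2 KO, with no overlap (difference -0.37, adjusted p = 0.355). Of the 17 genes that activate the kinases or turn cyclins over, 14 had a lower mean and 1 lay lower at an unadjusted p under 0.05. Of the 5 later cyclins and kinases measured, 4 had a lower mean and none an unadjusted p under 0.05.

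The inhibitors of these kinases were the other part of the pathway. Of 8 measured, 7 had a lower mean in Hmga2 KO, against 67.6% of all genes, and Cdkn2b was the exception. Cdkn2b, which encodes p15, an inhibitor of Cdk4 and Cdk6, had 1053, 937 and 1172 in wild type and 2312, 1526, 2062 and 1670.0 in Hmga2 KO. Every Hmga2 KO sample stood above every wild type sample, with the males highest, and the difference was 0.83 (SE 0.15, 95% interval 0.48 to 1.18, adjusted p = 0.205, limma). It was 0.60 in females alone, and with 1 sample left out its adjusted p ran from 0.0847 without Hmga2 KO replicate 2 to 0.695 without wild type replicate 3. Cdkn2c, which encodes p18, gave -0.37 (adjusted p = 0.421), Cdkn2a, whose locus encodes p16 and ARF, -0.30, and Cdkn1a, which encodes p21, -0.18. In females alone these were smaller, at -0.19, -0.13 and -0.07. Single samples moved them as well, with Cdkn2c at -0.23 and Cdkn1a at -0.06 without Hmga2 KO replicate 1, Cdkn1a at -0.08 without wild type replicate 2, and Cdkn2a at -0.16 without Hmga2 KO replicate 3. Over the 8 inhibitors the median male minus female difference within Hmga2 KO was -0.34.

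**Figure D4:**
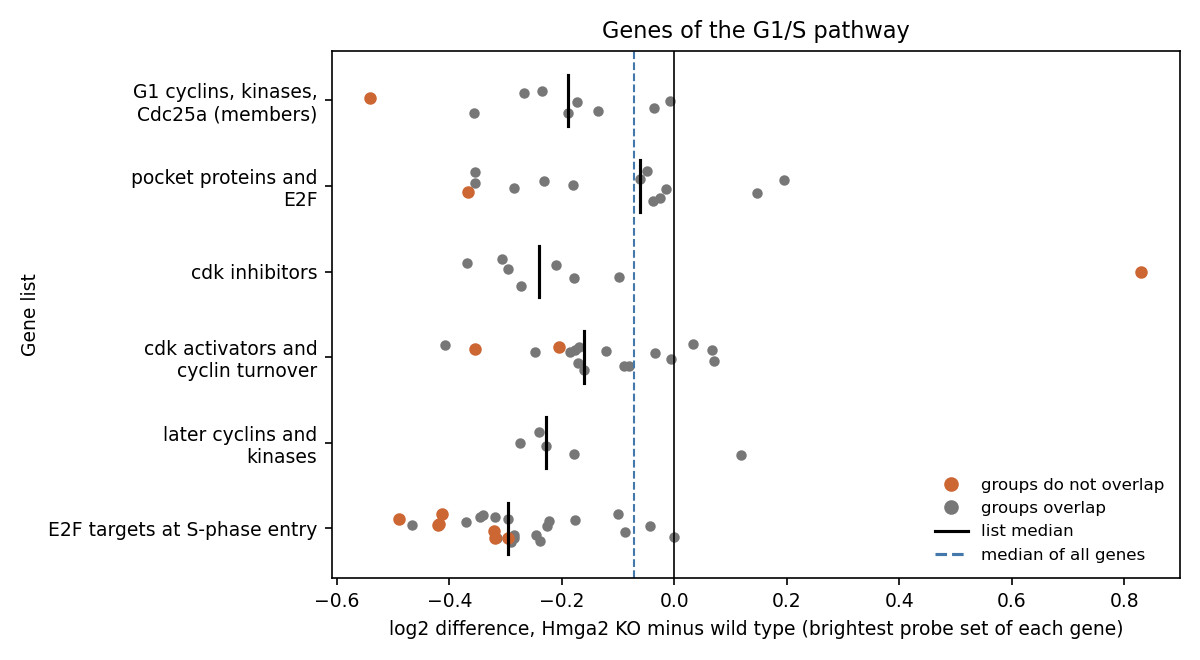
Difference in log2(intensity + 1), Hmga2 KO minus wild type (x axis), for the brightest probe set of each gene in 6 gene lists (y axis); each point is a gene, orange where the groups do not overlap, black bars are list medians and the dashed line is the median of all genes, -0.07. E2F targets have a median of -0.30, and Cdkn2b stands alone at 0.83.

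Between male and female Hmga2 KO samples, 23 of 45037 probe sets (0.0511%) passed the adjusted test and none of the 27 members did by limma, with 1 at an unadjusted p under 0.05 (5.32% of all probe sets), the Ccnd3 probe set described above. The genotype comparison holds 3 female wild type samples against 2 females and 2 males, so sex is unevenly spread over the groups. Fibroblast and fibro-adipogenic markers, of another cell type of muscle, summed to 20266 to 20887 in wild type and 21771 to 26617 in Hmga2 KO, highest in Hmga2 KO replicate 1. Their list mean relative to all samples was 0.03, -0.26 and -0.19 in wild type replicates 1 to 3. It was 0.53 and 0.14 in the Hmga2 KO males. In the Hmga2 KO females it was -0.18 and -0.08, inside the wild type range. Of 18 measured, 14 had a higher mean in Hmga2 KO and 4 lay higher at an unadjusted p under 0.05, where over all genes 67.6% had a lower mean and 3.06% lay higher at that threshold. Lum and Dpt were at or below the background range in 6 samples each. The part of these cells in the values of the cyclins was not tested.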

How the data were processed

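Per the labels' protocols, total RNA was labelled with biotin and hybridised to Affymetrix arrays. The authors deposited linear intensities, 1 per probe set and array, scaled to a median of 150 on every array. How probes were summarized and background-corrected, and with which software, is not stated in the labels or the file header. Intensities were used as log2(intensity + 1) with no further normalization, and differences are on that scale. The added 1 is small beside the lowest intensity on any array, 33.2. Changes of dim genes near the background range may still be understated, and by how much was not tested. Gene names come from the platform's annotation (34945 with 1 gene, 932 with several, 9160 unnamed), and 64 control probe sets were left out. Promoter sequences are from RefSeq, GRCm38.p6.

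Samples were grouped by their titles. All 45037 remaining probe sets entered limma 3.58.1 (R 4.3.3; lmFit, then eBayes) with genotype as the only term, without a filter on low values, and p-values were adjusted by Benjamini-Hochberg over all of them, with a threshold of 0.05. The sexes of Hmga2 KO were compared in a fit with 3 groups. Intervals are unadjusted 95% intervals of the fit that gave the difference, genotype alone or, between the sexes, the 3 groups. For a gene with several probe sets outside the 9 members, the one with the highest mean was used. Named pathway genes are up to 6 in each direction with the smallest unadjusted p under 0.05 and groups that do not overlap, plus a fixed set of 6. The members and lists were chosen with earlier results of these data known, and the scripts were tested on simulated data. Alternatives covered sex, replicate numbers, each sample left out, normalization, filter, unit, prior, weights, pseudocount and threshold.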

Additional observations from a re-analysis of the deposited data

Results flagged for a closer look

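In 3 of the 27 member probe sets, 1 of the 4 Hmga2 KO samples stood far from the rest by Dixon's 95% criterion, a rate at which chance marks about 1 in 20 groups. All 3 were Hmga2 KO replicate 1, a male. It had 2184.5 on the Ccnd2 probe set 1430127_a_at beside 1607 to 1629 in the other Hmga2 KO samples, and 1799 on 1416122_at beside 1416 to 1459. On the Cdc25a probe set 1417132_at it had 1393 beside 892 to 943. The same sample had the lowest mean of the terminal differentiation list, -0.90, and the highest of the fibroblast list, 0.53.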

How the results depend on the processing

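No member and no pathway gene passed the adjusted test of 0.05 under any of the alternatives. With all samples and no replicate block, none passed one of 0.1 either. The smallest adjusted p of a pathway gene, Cdkn2b, was 0.0558 with the replicate block and 0.0847 without Hmga2 KO replicate 2, both under 0.1, and 0.205 with all samples and no block. Of the 27 member probe sets, 17 kept the sign of their difference in every setting that measured them, at most 16. Over all probe sets, the count past the test was 8, and 84 with the replicate block, 13 with a trended and robust prior, 15 at an adjusted p of 0.1, and 5 with 1 probe set per gene or the mean of a gene's probe sets, where fewer units were tested. Leaving out 1 sample gave 4 to 34, lowest without wild type replicate 3 and highest without Hmga2 KO replicate 2. Deviations from the group means correlated at 0.228, 0.305 and -0.17 between wild type and Hmga2 KO samples of the same number, 1, 2 and 3. Between samples of different numbers they correlated at -0.36 to 0.17. Whether the numbers pair the samples cannot be told from so few values. Probe sets at an unadjusted p under 0.05 were 68.0% lower, and 49.8% with quantile normalization, and the cause was not tested. The Hmga2 difference of -6.90 was -6.91 in females alone and -7.00 to -6.82 without 1 sample, where too few splits remain for an exact permutation p under 0.05.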
